A study of Mus musculus with 3 samples.

Results

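The Hedgehog pathway was described here by 10 genes, Shh, Ptch1, Smo, Gli1, Gli2, Gli3, Hhip, Gas1, Boc and Sufu. They were taken by symbol from the gene names that the scanner files give, and every probe of each was kept. The array held 20 such probes, each 60 bases long, of 41174 gene probes in all, and 10 of 27962 gene names. Shh, Gli1 and Gas1 had 1 probe each, Ptch1, Gli2, Gli3 and Hhip had 2, and Smo, Boc and Sufu had 3.

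Total RNA was compared between embryonic stem (ES) cells of the mouse, which can form all tissues of the body, and mouse embryonic fibroblasts (MEF), mesenchymal cells grown from fetuses. The ES cells were untreated and grew in Knockout DMEM with serum, mercaptoethanol and leukemia inhibitory factor. The MEF grew in DMEM with heat-inactivated serum. On each of 3 two-colour arrays, 1 ES cell replicate was labelled with Cy3 and MEF with Cy5, and dyes were not swapped. The labels give no strain, cell line, passage or feeder layer, and they do not say whether the 3 replicates were cultured separately. The p-values therefore cover the spread between arrays, which may be technical. MEF stands as 1 control whose own spread between cultures is not measured.

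In the Hedgehog pathway, a secreted ligand such as Shh binds the receptor Ptch1 with the help of the co-receptors Gas1, Boc and Cdon. Binding lifts the block that Ptch1 puts on the transmembrane protein Smo, which then acts at the primary cilium to turn the Gli transcription factors into activators. Sufu holds the Gli proteins back, Hhip binds the ligand away from its receptor, and Ptch1, Hhip and Gli1 are themselves known target genes of the pathway.

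Probes of a gene are numbered here in the order of their identifiers. The sequences of 7 of them are shown. Those of Gli1, Boc probe 2 and Smo probe 3 are of called probes, those of Ptch1 and Gli2 are of the probe that was not called while another of the gene was, and those of Sufu are of probes whose ratios differ in sign. The called probes of Ptch1 and Gli2 are given by position where they are described. Each runs 5′ to 3′ as deposited, and each has at least 1 reading frame without a stop codon. Positions are those in the scanner files, mouse build mm7, and gene annotation of that build was not used here.
Ptch1 probe 1 (A_51_P127435, chr13:61333864-61333923, minus strand): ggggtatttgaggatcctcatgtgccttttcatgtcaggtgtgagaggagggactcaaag
Smo probe 3 (A_52_P444864, chr6:29687728-29688961, plus strand): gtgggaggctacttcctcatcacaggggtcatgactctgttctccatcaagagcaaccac
Gli1 (A_51_P518548, chr10:126832331-126832390, minus strand): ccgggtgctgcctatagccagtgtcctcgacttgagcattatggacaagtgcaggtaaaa
Gli2 probe 2 (A_52_P564620, chr1:118696781-118696840, minus strand): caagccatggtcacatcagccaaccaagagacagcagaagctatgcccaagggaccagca
Boc probe 2 (A_52_P319495, chr16:44263258-44263317, minus strand): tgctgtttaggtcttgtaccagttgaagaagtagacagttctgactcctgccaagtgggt
Sufu probe 1 (A_51_P396550, chr19:46380235-46380294, plus strand): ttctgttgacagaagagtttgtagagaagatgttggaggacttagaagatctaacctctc
Sufu probe 3 (A_52_P603184, chr19:46351403-46351462, plus strand): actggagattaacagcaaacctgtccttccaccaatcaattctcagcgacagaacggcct
The 60 bases of Smo probe 3 span 1234 bases of the genome, whereas the other 6 lie in 1 block of 60. The GC content of all 20 probes ran between 21.7% (Ptch1 probe 2) and 55.0% (Gli2 probe 2).

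Levels below are normalized intensities (brightness after background correction, loess and scaling between arrays), and ratios are log2 of ES cells over MEF. The probes were tested in 1 limma fit over the 29502 probes well above background on all 3 arrays in at least 1 channel. A probe was called at a Benjamini-Hochberg adjusted p under 0.05 over all of them and a change of at least 2-fold. Ptch1 and the activators Gli1 and Gli2 were higher in ES cells, by their called probes. Smo, Gli3 and the co-receptors Gas1 and Boc were lower, also by their called probes. Hhip and Sufu did not pass the fold minimum, and Shh was not well above background in either cell type.

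Of the 20 probes, 15, of 9 genes, were tested. Of these, 8 were called (53.3%), where 41.0% of all tested probes were called. The 3 called higher in ES cells made up 20.0%, against 19.9% of all tested probes, and the 5 called lower made up 33.3%, against 21.1%. All 15 had an adjusted p under 0.05, as did 95.4% of all tested probes, so the fold minimum set the calls. The levels of ES cells and MEF did not overlap over the 3 arrays for 14 of the 15. The same held for 92.0% of all tested probes with a value on every array. The median log2 ratio was -0.64 over the 15 probes, also with Gli3 probe 2 at its bound, and -0.02 over all tested probes. The shares of probes that were called higher, that passed the p threshold or that did not overlap lay near those of all tested probes.

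**Figure D1:**
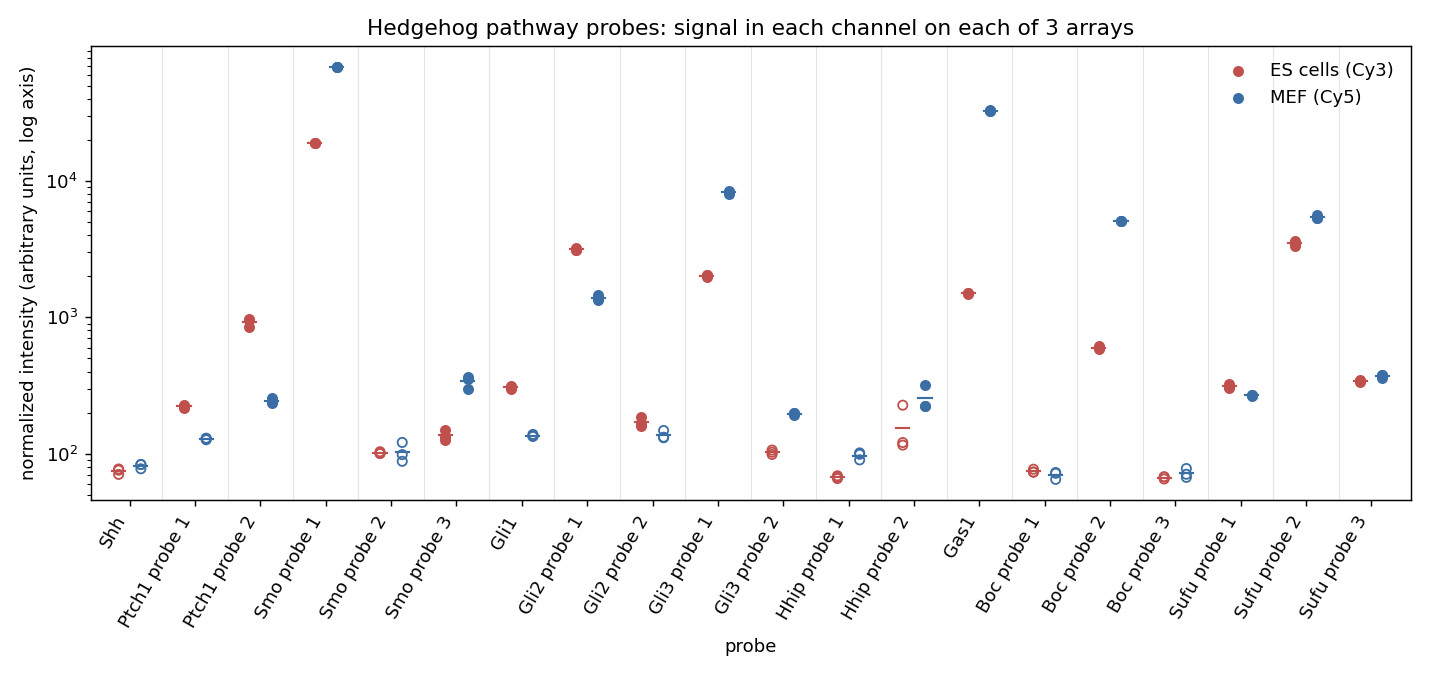
Normalized intensity (log scale) of each of the 20 probes in ES cells and in MEF on the 3 arrays; filled symbols mark probes well above background on all 3 arrays in that cell type, open symbols the others. Gas1 shows the widest gap, with 1479 to 1519 in ES cells and 32533 to 33476 in MEF, and the Shh symbols of both cell types are open.

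Shh, the secreted ligand, had 1 probe (A_52_P49014), spotted 10 times on each array. It read 77.1, 70.3 and 75.5 in ES cells and 83.1, 77.3 and 83.0 in MEF. It was not well above background in either channel on any array and was not tested, so neither cell type gave a level that could be compared. The other ligands were in a wider list of pathway genes: Ihh was not tested for the same reason. Dhh, named after its values were seen, had a log2 ratio of 0.94 ± 0.042 (SD, n = 3 arrays) and was not called.

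Ptch1, the ligand receptor, was higher in ES cells by probe 2 (A_52_P598605, chr13:61331255-61331314, minus strand). That probe read 854, 971 and 955 in ES cells and 240.4, 235 and 254 in MEF. Every ES cell value lay above every MEF value. The log2 ratio was 1.93 ± 0.11 (SD, n = 3 arrays), a 3.81-fold higher level in ES cells (limma, adjusted p = 5.29e-06), and stood at the 93.5th percentile of all tested probes. Probe 2 had 1 spot per array. Probe 1, spotted 10 times per array, read 218, 227 and 220.5 in ES cells and 129.6, 129 and 126 in MEF. It had the same direction with no overlap, but its 1.73-fold difference was under the fold minimum (log2 ratio 0.79 ± 0.038, adjusted p = 5.95e-06). Its MEF signal was well above background on 1 of 3 arrays, and its single spots ran between 0.63 and 0.93.

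Gas1, a membrane-anchored co-receptor for the ligand, had the lowest ratio of the 15 tested probes (A_51_P157083, chr13:59283463-59283522, minus strand). It read 1519, 1501 and 1479 in ES cells and 33476, 32824 and 32533 in MEF. The groups lay far apart and each was tight over the arrays. Gas1 was 22.0-fold lower in ES cells (log2 ratio -4.46 ± 0.0057, SD, n = 3 arrays; limma, adjusted p = 1.87e-07). Only 0.525% of all tested probes had a lower ratio.

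Boc, a co-receptor of the immunoglobulin superfamily, was lower in ES cells by the only one of its 3 probes that was well above background. Boc probe 2, whose sequence is given above, read 612, 586 and 599.8 in ES cells and 5114, 5078 and 5069 in MEF. There was no overlap, and the level was 8.49-fold lower in ES cells (log2 ratio -3.09 ± 0.027, SD, n = 3 arrays; limma, adjusted p = 1.96e-07). Probes 1 and 3 (A_51_P162636 and A_52_P623296) were not well above background in either channel on any array. They read 65.0 to 76.7 in ES cells and 64.6 to 77.6 in MEF, and give no bound on the ratio. Cdon, the other co-receptor of that family, named after its values were seen, had a log2 ratio of -0.96 ± 0.0091 and was not called.

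Smo, the signal transducer, was lower in ES cells by both of its tested probes. Probe 1 (A_51_P258766, chr6:29693371-29693430, plus strand) read 19085, 19154 and 18888 in ES cells and 68603, 69229.5 and 68415 in MEF. Probe 3, shown above, read 149, 132 and 127 in ES cells and 353, 363 and 299 in MEF. On both probes every ES cell value lay under every MEF value. The log2 ratio of probe 1 was -1.85 ± 0.0057, or 3.61-fold lower in ES cells (limma, adjusted p = 2.41e-07). That of probe 3 was -1.32 ± 0.13, or 2.49-fold lower (adjusted p = 3.00e-05). Probe 2 (A_51_P392665) was not well above background in either channel, with means of 101 ± 1.74 in ES cells and 102 ± 16.8 in MEF.

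Of the 3 Gli transcription factors, Gli1 and Gli2 were called higher in ES cells and Gli3 lower. Gli1, mainly an activator, read 296, 312 and 309 in ES cells and 138, 133 and 135 in MEF on its 1 probe, shown above. ES cells were higher on every array, and MEF were well above background on 2 of 3. The log2 ratio was 1.17 ± 0.065 (SD, n = 3 arrays), or 2.26-fold higher in ES cells (limma, adjusted p = 5.82e-06). The probe was spotted 10 times per array, and its single spots ran between 0.84 and 1.47, so the array means averaged a wider spread.

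Gli2, the main activator downstream of Smo, was higher in ES cells by probe 1 (A_52_P357829, chr1:118695197-118695256, minus strand). That probe read 3142, 3217 and 3124 in ES cells and 1341, 1393 and 1446 in MEF, with no overlap. It was 2.27-fold higher in ES cells (log2 ratio 1.18 ± 0.062; adjusted p = 5.17e-06). Probe 2, shown above, read 185, 166 and 159.6 in ES cells and 148, 131 and 132 in MEF, and was well above background in MEF on 1 array. Its 1.24-fold difference had the same sign and was not called (log2 ratio 0.31 ± 0.034; adjusted p = 0.000111).

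Gli3, which is processed to a repressor when no ligand is present, was lower in ES cells by probe 1 (A_51_P171288, chr13:15096631-15096690, plus strand). It read 2041, 2056 and 1967 in ES cells and 8371, 8495 and 8093 in MEF. The groups did not overlap, and ES cells were 4.12-fold lower (log2 ratio -2.04 ± 0.0053; adjusted p = 2.13e-07). Probe 2 (A_51_P410070) read 106, 98.5 and 102 in ES cells and 199, 197 and 193 in MEF. In ES cells it was not well above background on any array, so the level was at least 1.72-fold lower there, set against the dimmest probes well above background. Its fitted log2 ratio of -0.94 ± 0.050 (adjusted p = 6.12e-06) was under the fold minimum.

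Hhip, the decoy that binds the ligand, had 1 tested probe of 2. Probe 2 (A_52_P249826) read 115, 120.4 and 226 in ES cells and 225, 224 and 319.7 in MEF. Array 3 was higher than the others in both channels, so the levels overlapped, although ES cells were below MEF on each array. The log2 ratio was -0.78 ± 0.25 (SD, n = 3 arrays) with an adjusted p of 0.00204, the largest SD of the 15 tested probes, and the probe was not called. Without replicate 3 it was -0.93, still uncalled. ES cells were well above background on 1 of 3 arrays. Probe 1 (A_51_P416822) was not well above background in either channel, with 65.5 to 68.6 in ES cells and 89.8 to 101 in MEF.

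Sufu, which binds and restrains Gli proteins, had 3 tested probes, none of them called. Probe 2 (A_52_P340811, chr19:46385251-46385310, plus strand) read 3358, 3511 and 3611 in ES cells and 5319, 5355 and 5666 in MEF. It was 1.56-fold lower in ES cells (log2 ratio -0.64 ± 0.028; adjusted p = 6.90e-06). Probe 1 read 302, 326 and 309.7 in ES cells and 266, 269 and 270.0 in MEF, a 1.16-fold higher level in ES cells (log2 ratio 0.22 ± 0.051; adjusted p = 0.00107). Probe 3 read 336, 339 and 346 in ES cells and 360.1, 378 and 379 in MEF, a 1.09-fold lower level in ES cells (log2 ratio -0.13 ± 0.030; adjusted p = 0.00213). Groups did not overlap on any of the 3, yet the probes differed in sign, and under median centring probe 3 turned to 0.023. No direction is given for the gene.

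**Figure D2:**
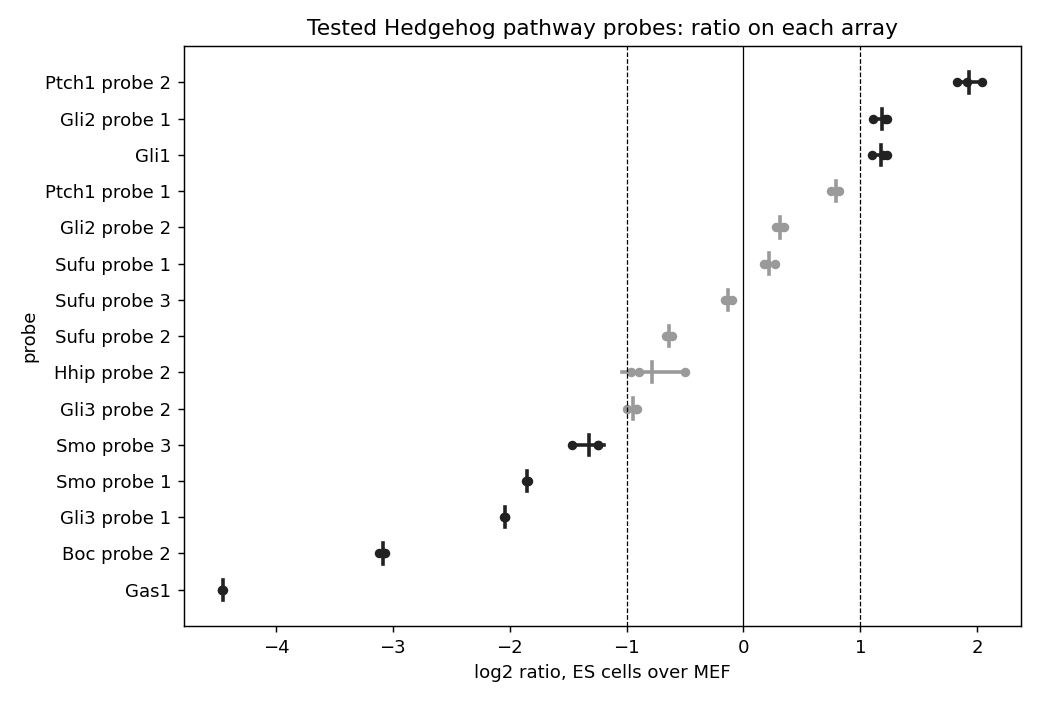
Log2 ratio of ES cells over MEF for the 15 tested probes: points are the 3 arrays and bars the mean ± 1 SD; dashed lines mark the 2-fold minimum, black probes were called and grey ones not. The order runs between Gas1 at -4.46 and Ptch1 probe 2 at 1.93, and the 3 Sufu probes lie on both sides of 0.

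Ordered by ratio, the tested probes ran Gas1, Boc probe 2, Gli3 probe 1, Smo probes 1 and 3, Gli3 probe 2, Hhip probe 2, Sufu probes 2, 3 and 1, Gli2 probe 2, Ptch1 probe 1, Gli1, Gli2 probe 1 and Ptch1 probe 2. The ranges over the 3 arrays overlapped between 3 pairs of neighbours, Gli3 probe 2 with Hhip probe 2, Hhip probe 2 with Sufu probe 2, and Gli1 with Gli2 probe 1. All other neighbours lay apart. The median SD of the 15 ratios was 0.038, smaller than the difference between probes of a gene in each of the 5 genes with several tested probes. That difference was 1.14 for Ptch1, 1.10 for Gli3, 0.87 for Gli2, 0.86 for Sufu and 0.53 for Smo on the log2 scale. In Ptch1, Gli2, Gli3 and Smo the ratio smaller in size was that of the dimmer probe. The differences depended on the processing. The background correction used an offset of 50, which shrinks ratios of dim probes. With an offset of 0, Gli3 probe 2 was at -1.50 and Smo probe 3 at -1.75. With the scanner software's own processed signals, Gli3 probe 2 was at -2.41 and probe 1 at -1.96. Smo probe 3 was then at -2.04 and probe 1 at -1.76, so the order within both genes turned. The order within Ptch1, Gli2 and Sufu did not turn. With no dye swap, any dye bias of a single probe remains in its ratio, and its part in these differences was not tested.

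Some dim probes gained calls under other processing. With the scanner software's own processed signals, Ptch1 probe 1, Gli3 probe 2 and Hhip probe 2 passed the fold minimum, at 1.68, -2.41 and -1.53. Among the called probes, these signals moved Gli1 (to 2.16) and Smo probe 3 (to -2.04) the most. The direction of the 8 called probes was the same under each alternative that tested them, although several alternatives reuse the reported ratios. Gli1 was not tested where both channels had to be above background on all arrays. Gli2 probe 1 kept its call except when all probes of a gene were averaged, where the Gli2 value was 0.75.

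**Figure D3:**
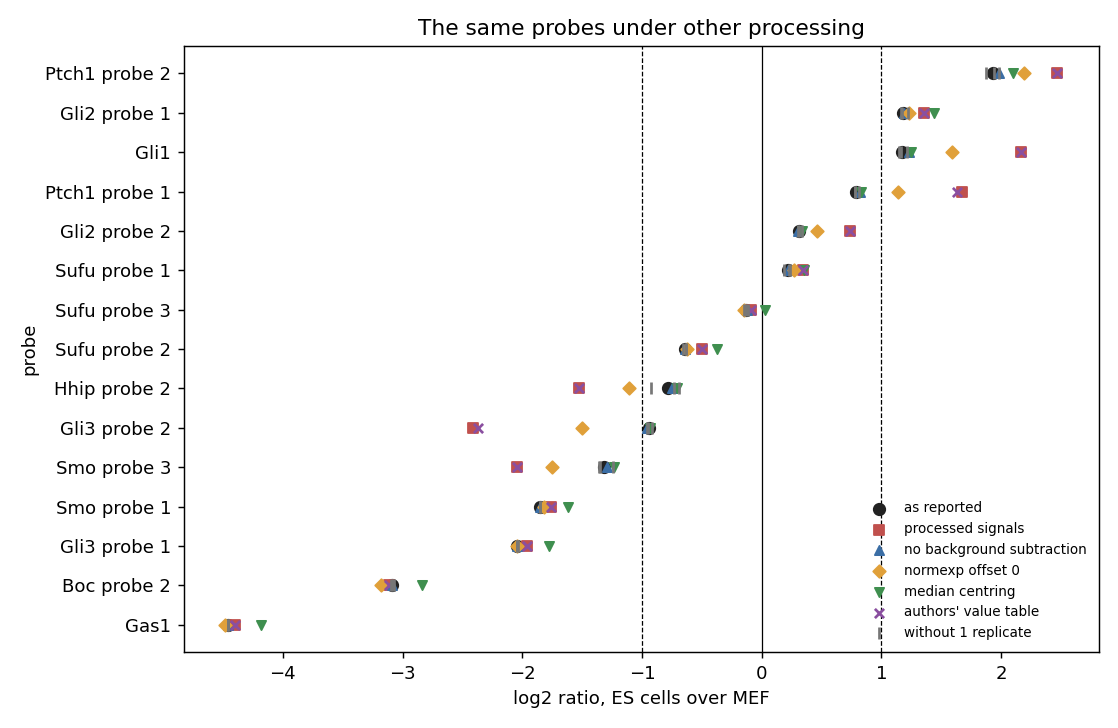
Log2 ratio of ES cells over MEF of the tested probes as reported and under 6 other settings; leaving out 1 replicate at a time gives 3 marks a probe. The Gas1 ratio ran between -4.48 and -4.18, Ptch1 probe 2 between 1.87 and 2.46, and Gli1 between 1.15 and 2.16.

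The wider pathway was read through lists of genes, each gene by its brightest tested probe. Among all 19496 genes tested that way, 42.8% were called, 20.4% higher and 22.5% lower in ES cells, with a median log2 ratio of -0.05. Of 45 other Hedgehog pathway genes, 40 were tested: 2 were called higher in ES cells, 10 lower, and 28 were not called (30.0% called, median -0.43). Lrp2, an endocytic receptor that binds Shh, was among the higher genes, with a log2 ratio of 2.59 ± 0.072 (limma, adjusted p = 7.72e-07), and all 3 of its tested probes were called in that direction.

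The 3 lowest called of that list were Scube1, Glis2 and Disp1. Scube1, of a secreted protein family whose members help release the ligand, had a log2 ratio of -3.86 ± 0.13 (adjusted p = 1.15e-06), by 1 of its 3 tested probes, the others being uncalled. On that probe ES cells were well above background on 1 of 3 arrays. The Scube1 value ran between -5.15 and -1.87 over the alternatives. Glis2, a zinc finger protein related to the Gli family, was at -1.85 ± 0.023 (adjusted p = 3.31e-07). Disp1, which releases lipid-modified ligand from the cell that makes it, was at -1.80 ± 0.0088 (adjusted p = 2.58e-07), while its other probe was at -0.09.

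Genes of the primary cilium, the organelle where Smo and the Gli proteins act, were mostly uncalled. Of 46 listed, 44 were tested: 5 were called higher in ES cells, 3 lower and 36 not called (18.2% called, median -0.04). The highest were Intu, a planar polarity effector needed for cilium formation (1.74 ± 0.029), Wdr35 of the intraflagellar transport complex (1.60 ± 0.0067) and Talpid3, a centriolar protein (1.53 ± 0.060). Of the 3 tested probes of Intu, the one left uncalled was at -0.23. The lowest were Ttc8, a subunit of the BBSome (-2.15 ± 0.017), and the intraflagellar transport genes Ift20 (-1.25 ± 0.017) and Ift122 (-1.08 ± 0.014). These counts depended on the processing: under median centring 9 were called higher and 1 lower.

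Of 37 candidate target genes, linked to the pathway in one tissue or another, 33 were tested, with 5 called higher in ES cells, 25 lower and 3 not called (90.9% called, median -2.07). The lowest were the growth factor gene Igf2 (-5.59 ± 0.056) and the forkhead factors Foxc1 (-5.30 ± 0.021) and Foxd1 (-5.10 ± 0.053). The highest were Mycn (7.18 ± 0.040), a growth-promoting transcription factor, and Jag2 (3.45 ± 0.61), a Notch ligand. The other tested probe of Mycn was at 3.31, also called. Osr2, Nkx3-2 and Angpt1 were not well above background in ES cells and were at least 3.02-fold, 6.03-fold and 3.30-fold lower there. With these at their bounds, the median was again -2.07. Many genes of this list are also known for roles in mesenchyme or in pluripotent cells outside the pathway, and it was chosen with results of these data known. Of the targets among the members, Ptch1, by probe 2 alone, and Gli1 were called higher in ES cells. Hhip was lower in ES cells on each array (log2 ratio -0.78 ± 0.25) and was not called.

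**Figure D4:**
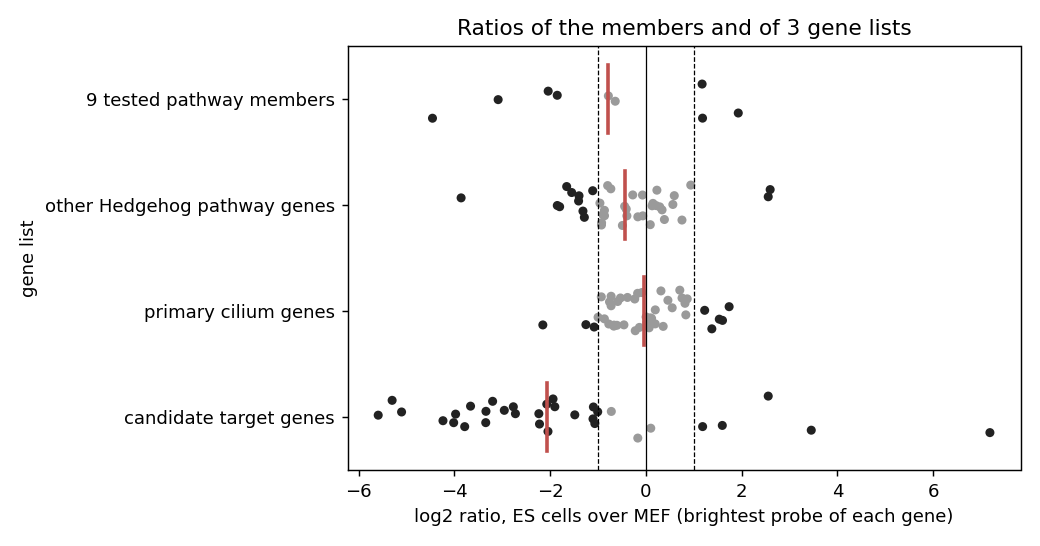
Log2 ratio of ES cells over MEF by gene (brightest tested probe) for the 9 tested pathway members and 3 lists; red bars are medians and black points have a ratio of at least 2-fold in either direction. Medians were -0.43 for other pathway genes, -0.04 for cilium genes and -2.07 for candidate targets.

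The labelled cell types were checked against marker genes. Of 9 ES cell markers 8 were tested, and all 8 were higher in ES cells, with log2 ratios of 3.75 ± 0.055 for Pou5f1, 4.02 ± 0.028 for Nanog and 5.79 ± 0.062 for Sox2. All 10 fibroblast markers were lower in ES cells, among them Col1a1 at -8.10 ± 0.015, Col3a1 at -7.59 ± 0.0078 and Thy1 at -2.52 ± 0.026. All 10 were also well above background in ES cells, where their summed intensity was 47757 to 49335, against 1981247 to 2003497 in MEF. The 8 tested ES cell markers were in turn all well above background in MEF. Their summed intensity was 28532 to 30114 there, against 618396 to 628128 in ES cells. Markers of other cell types differed too. Of 7 macrophage markers, 6 were lower in ES cells (Csf1r -5.69 ± 0.075). The summed intensity of all 7 was 11824 to 12229 in ES cells and 394601 to 421978 in MEF. Of the other lists, 4 of 6 tested neuron and glia markers were lower in ES cells, among them Gfap, at least 37.8-fold lower, as were 3 of 4 tested cartilage and bone markers. Endothelial markers went both ways, with 2 higher (Pecam1 2.59 ± 0.042) and 2 lower of 4 tested. Of skeletal muscle markers 1 of 3 tested was lower, of epidermal markers 0 of 2 were called, and of floor plate and notochord markers 1 of 3 was higher in ES cells. The presence of these cell types and their part in the pathway genes' ratios were not tested. In bulk RNA, fewer cells of a type and less RNA per cell cannot be told apart.

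Promoter sequence was read from RefSeq windows of assembly GRCm38.p6, 250 bases before to 50 after each start, which 7 of the 10 genes had (Ptch1, Smo, Gli2, Gli3, Hhip, Gas1 and Sufu). The Gli binding word GACCACCCA, searched on both strands (TGGGTGGTC on the other), was in 0 of the 7 windows and in 83 of all 32851 windows (0.253%). Its absence says only that these letters are not in these windows. GC content of the 7 ran between 56.3% (Sufu) and 76.3% (Ptch1), where the median of all windows was 52.7%, and the count of CG pairs between 12 and 47, where the median was 7.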

How the data were processed

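RNA of 3 ES cell replicates (Cy3) was set against MEF RNA (Cy5) on 3 two-colour Agilent arrays of 1 slide, scanned together per the file headers, so no batch could be tested. The series' design text has a different name for the Cy5 RNA; MEF is taken from the sample labels. The authors, per the file headers, extracted spots with Agilent Feature Extraction, and the deposited mean spot and median background intensities are not background-subtracted. The deposited log10 ratio is Cy5 over Cy3 of processed signals, and the deposited log2 value table holds ES cells over MEF (within 0.01 of the sign-turned ratio for 85.4% to 87.8% of probes). Its columns have medians of 0.213, 0.0859 and -0.143, so they are not centred, and how its remaining values were made stays unknown.

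Intensities were corrected with normexp (offset 50, which shrinks ratios of dim probes) and loess in limma 3.58.1 under R 4.3.3, with control spots at weight 0. Outlier spots were left out, spots of a probe averaged, and channel levels scaled by Aquantile, which leaves ratios as they are. The mean log2 ratio of 29502 of 41174 probes was tested against 0 (intercept only, Benjamini-Hochberg over all). Bounds set a group's mean against the higher of the dim probe and the dimmest probe well above background, per array, and are open to dye bias. Median gene spot signals were 398 to 421 in ES cells and 381 to 391 in MEF, over backgrounds of 45 to 56 and 38 to 41.5, and the number of arrays limits the precision. The procedure was also run on simulated arrays with few changed probes and no dye bias of single probes. That run checks the code and does not bear on the calls in these data.

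Names were those in the files for the pathway members. For lists they came from RefSeq accessions (22951 probes), symbols (6659) or synonyms (3109) of GRCm38.p6, and 8455 probes kept the file's name. Of the list entries, Dyrk2 and Mks1 matched no probe. Named from the lists were the 3 highest and 3 lowest called genes of each, a set of markers, and genes of nearest pattern; a gene that this rule takes in is not reported here. The members and lists were chosen with earlier results of these data known. Alternatives were processed signals, no background subtraction, offset 0, median centring, filters on dim probes, the brightest probe or mean of probes per gene, outlier spots kept, no fold minimum, limma's treat, the authors' value table and leaving out each replicate.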

Additional observations from a re-analysis of the deposited data

How the results depend on the processing

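Over the member probes, 190 of 208 comparisons of a probe's value under an alternative kept direction and call, 16 gained a call, 1 lost it (Gli2 probe 1 at 0.75 with the mean of probes per gene) and 1 turned sign (Sufu probe 3 at 0.023 under median centring, adjusted p = 0.735 by limma). The filters on dim probes, no fold minimum, treat and the brightest probe reuse the reported ratios, so no direction could change there. The authors' value table largely repeats the processed signals. The count of 190 therefore does not measure independent agreement. Calls gained came with processed signals, offset 0 and the authors' value table for Ptch1 probe 1 (1.68, 1.14 and 1.63), Gli3 probe 2 (-2.41, -1.50 and -2.37) and Hhip probe 2 (-1.53, -1.11 and -1.53), and with no fold minimum. Without any 1 replicate, 3 member probes were called higher and 5 lower in ES cells, as with all 3. Without the fold minimum, counts in ES cells were 6 member probes higher and 9 lower, 13851 of all probes higher and 14289 lower, 14 other pathway genes higher and 26 lower, and 20 cilium genes higher and 22 lower. With the mean of probes per gene, 3834 genes were called higher and 4052 lower, fewer features being tested, and Disp1 lost its call (-0.95). Median centring, which moved the median of all probes by 0.17, called 4 other pathway genes higher and 9 cilium genes higher against 1 lower. It took the call of Ift20 (-0.97) and Ift122 (-0.80). Processed signals and the authors' value table each called 8 cilium genes higher and gave Ift122 -0.92. With both channels required to be above background, 5 member probes (Gli1, Gli2 probe 2, Gli3 probe 2, Hhip probe 2 and Ptch1 probe 1) and Scube1 were not tested. The causes were not tested. The reported fit is itself paired, as it tests the ratio within each array, so a replicate block could not be added to it. With 3 arrays and no dye swap, the spread covers neither MEF cultures nor dye bias, and ratios of probes near background are the least certain.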

Other observations

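Genes with the most similar ratios were looked up by Euclidean distance over the 3 arrays' log2 ratios, for the member probes with the lowest and the highest ratio. Nearest to Gas1 (-4.46) were Adgrg2 at a distance of 0.031, Slc1a6 at 0.043 and Pde1a at 0.058. Nearest to Ptch1 probe 2 (1.93) were Zfp518a at 0.051, E2f7 at 0.053 and Brsk2 at 0.064. With 3 arrays of 1 comparison, such nearness says only that the ratios are of like size.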
